A study of Homo sapiens with 17 samples.

Results

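The 9 genes KDR, FLT1, FLT4, TEK, PECAM1, CDH5, ENG, VEGFA and VEGFC code for receptors and adhesion proteins of blood and lymph vessels and for ligands of the VEGF receptors. They were taken by symbol from a table of 60199 genes, with earlier results of these data known. All 9 were in the table, and 7 of them had enough reads in the UTX knockout (KO) and wild-type (WT) libraries to enter the test across genes. PECAM1 and CDH5 did not, although CDH5 did when the KO lines were fitted as separate groups. RNA was read in 3 libraries of the UTX-/- line KO1, 2 libraries of the UTX-/- line KO2 and 3 libraries of wild-type cells. All came from H9, a human embryonic stem cell line, at passage P40, taken through embryoid bodies, hand-picked neural rosettes and neurospheres, and kept in neuronal medium with BDNF, GDNF, dibutyryl cyclic AMP and ascorbic acid. Cells were collected on day 40, and the labels list no VEGF among the medium's additives. UTX, also called KDM6A, is a demethylase that takes H3K27me3 off histone H3. The labels call KO1 and KO2 lines and do not say whether each is 1 clone, how UTX was disrupted, or whether replicates were separate differentiations, so the tests measure only the spread between these libraries. ChIP-seq for H3K27me3 and H3K36me3 was deposited as 1 peak list per mark for UTX-/- cells and 1 for WT cells.

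VEGF ligands act on 3 receptor tyrosine kinases. KDR is the main signalling receptor for VEGFA, FLT1 binds VEGFA tightly and also exists as a soluble form that withholds it, and FLT4 is the receptor for VEGFC on lymphatic vessels. TEK is the receptor for angiopoietins, ENG is a co-receptor for TGF-beta family ligands on endothelium and on mesenchymal stromal cells, and PECAM1 and CDH5 hold endothelial cells together at their junctions. In developing brain, vessels grow in from outside the neural tissue, and neural cells secrete VEGFA that guides them. H3K27me3 is the mark of Polycomb repression, laid down by PRC2, and it covers the promoters of many developmental genes in cells that do not use them.

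KDR and ENG were the 2 members that were higher in KO neurons by DESeq2, the tool named in the submitters' processing notes. KDR was 22.1-fold higher in KO than in WT and ENG was 17-fold higher. FLT4 was lower in all 5 KO libraries than in every WT library without passing a test, and the level of the ligand gene VEGFA differed little between the group means. Of the endothelial junction genes, PECAM1 was at or near 0 in every library, and CDH5 was low in all but KO2 replicate 1, where it was at 2.24 CPM. By edgeR's quasi-likelihood test, chosen here for all comparisons, no member and no other gene of 18614 passed a false discovery rate (FDR) of 0.05, the rate expected among genes called. The share of all genes called was 0% by edgeR and 5.99% by DESeq2, 4.83% higher and 1.16% lower in KO, so the calls on KDR and ENG rest on the choice of tool. At an unadjusted p under 0.05, edgeR held KDR and ENG among 17.9% of all genes.

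Of the 8 libraries, 3 KO libraries stood apart in RNA of mesenchymal genes, and ENG was high in the same 3. COL1A1, the main fibrillar collagen of connective tissue, was at 278, 27500 and 258 CPM (counts scaled to the library total) in KO1 replicates 1, 2 and 3 and at 9230 and 14500 CPM in KO2 replicates 1 and 2, against 126, 7.65 and 387 CPM in WT replicates 1, 2 and 3. The summed level of 19 mesenchymal marker genes ran between 2960 and 73000 CPM in KO libraries and between 1960 and 3910 CPM in WT libraries, and that of 12 neuronal markers between 815 and 5100 CPM in KO and between 3910 and 5780 CPM in WT. KO1 replicate 2 and both KO2 libraries are called the high-collagen libraries here. KDM6A itself was at 40.8, 30.1 and 34.1 CPM in KO1 and 25.9 and 33.9 CPM in KO2, against 36, 35.9 and 35.2 CPM in WT. Reads summed over the gene cannot show a small edit, and where UTX was edited is not stated in the labels.

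The promoters of 5 members were at hand from RefSeq (GRCh38.p14): KDR, FLT1, TEK, VEGFC and ENG. They are shown because H3K27me3 peaks lay over the promoters of KDR and FLT1 and not over those of the other 3, and because promoters rich in CpG dinucleotides are the usual places of Polycomb binding in mammals. Each is the 250 bases before the annotated transcription start, read 5′ to 3′ on the gene's strand, and capitals mark CpG dinucleotides. For TEK, which has a second annotated start, the first is shown.
KDR promoter, chr4:55125596-55125845, minus strand: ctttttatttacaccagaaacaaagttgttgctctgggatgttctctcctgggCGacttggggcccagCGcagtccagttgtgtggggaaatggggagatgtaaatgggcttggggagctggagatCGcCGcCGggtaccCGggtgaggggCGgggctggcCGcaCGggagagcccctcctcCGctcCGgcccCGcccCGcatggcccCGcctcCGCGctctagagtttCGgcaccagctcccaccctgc
FLT1 promoter, chr13:28495129-28495378, minus strand: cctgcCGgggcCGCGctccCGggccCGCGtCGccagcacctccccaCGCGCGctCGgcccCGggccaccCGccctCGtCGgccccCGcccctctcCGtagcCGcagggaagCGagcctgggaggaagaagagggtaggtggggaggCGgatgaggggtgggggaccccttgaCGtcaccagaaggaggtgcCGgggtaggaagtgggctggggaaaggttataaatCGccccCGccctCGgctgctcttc
TEK promoter, chr9:27108975-27109224, plus strand: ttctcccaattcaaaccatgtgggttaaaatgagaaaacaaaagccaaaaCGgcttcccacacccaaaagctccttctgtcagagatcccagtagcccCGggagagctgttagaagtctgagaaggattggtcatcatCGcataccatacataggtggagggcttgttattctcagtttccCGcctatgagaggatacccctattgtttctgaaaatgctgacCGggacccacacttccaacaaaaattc
VEGFC promoter, chr4:176792923-176793172, minus strand: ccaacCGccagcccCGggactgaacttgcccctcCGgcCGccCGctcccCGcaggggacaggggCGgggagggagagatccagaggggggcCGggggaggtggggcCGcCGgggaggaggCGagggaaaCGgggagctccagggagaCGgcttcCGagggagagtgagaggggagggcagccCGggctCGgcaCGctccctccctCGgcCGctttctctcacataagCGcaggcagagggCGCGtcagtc
ENG promoter, chr9:127854659-127854908, minus strand: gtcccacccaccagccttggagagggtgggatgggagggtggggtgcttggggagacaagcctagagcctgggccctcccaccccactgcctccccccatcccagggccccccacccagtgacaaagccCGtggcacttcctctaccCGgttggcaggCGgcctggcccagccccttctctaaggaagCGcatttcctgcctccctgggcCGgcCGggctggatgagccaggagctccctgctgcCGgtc

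CpG content did not follow the peaks across these 5 promoters. The KDR promoter holds 17 CpG in 65.2% G+C and the FLT1 promoter 25 CpG in 73.2% G+C. Over 35116 RefSeq promoters of the same length the median was 11 CpG, and 39% held at least as many as KDR and 21.6% at least as many as FLT1. VEGFC, which had no H3K27me3 peak in either genotype, holds 22 CpG in 74% G+C, between KDR and FLT1 in CpG number. ENG holds 7 CpG and TEK 5 CpG, both under the median. Short motifs were searched on both strands. ACGTG, a form of the hypoxia response element core, was in none of the 5 windows and in 18.5% of all promoters. The form GCGTG was not searched. GGAA, the core of ETS factor sites, was in all 5 windows, with 1 match in KDR, 4 in FLT1, 3 in TEK, 2 in VEGFC and 3 in ENG, and 92.7% of all promoters hold it. GATA, the core of GATA factor sites, had 1 match in TEK and none in KDR, FLT1, VEGFC or ENG, and is in 45.6% of all promoters. The window before the second TEK start, not shown, holds 1 CpG, 6 matches of GGAA and 4 of GATA. A match of such short letters is a description of the window and not a site.

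KDR, the main receptor for VEGFA, was at 18.1, 42.5 and 1.91 CPM in KO1 replicates 1, 2 and 3 and at 39.2 and 21.5 CPM in KO2 replicates 1 and 2, against 0.811, 0.926 and 1.66 CPM in WT replicates 1, 2 and 3. Every KO library was above the highest WT library, and KO1 replicate 3 was the only KO library near the WT range. Its 65 counts give an exact Poisson 95% interval of 1.48 to 2.44 CPM, which overlaps the 1.13 to 2.36 CPM of WT replicate 3 with 31 counts, so counting error alone does not part these libraries. The level averaged 24.6 ± 16.6 CPM in KO (SD, n = 5) and 1.13 ± 0.462 CPM in WT (SD, n = 3). DESeq2 gave a log2 difference of 4.47 with a standard error (SE) of 0.77, a 95% interval of 2.96 to 5.98 and an adjusted p of 4.16e-06. edgeR gave a log2 difference of 4.45 with an FDR of 0.243 and an unadjusted p of 0.00172. Unlike ENG, KDR was also high in KO1 replicate 1, a library with COL1A1 at 278 CPM. Without the 3 high-collagen libraries, DESeq2 still called KDR, at a log2 difference of 3.15 and an adjusted p of 0.0107, where 1.43% of genes were called. On the KO side that fit holds only KO1 replicates 1 and 3, at 18.1 and 1.91 CPM.

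ENG, the TGF-beta co-receptor that is also a standard surface marker of mesenchymal stromal cells, was at 3.44, 45.1 and 2.53 CPM in KO1 and at 42.6 and 26.4 CPM in KO2, against 1.78, 0.343 and 2.2 CPM in WT. The 3 high libraries were the high-collagen ones, and KO1 replicates 1 and 3 lay just above the WT range. The Poisson interval of KO1 replicate 3, 2.03 to 3.13 CPM, overlapped that of WT replicate 3, 1.58 to 2.98 CPM. ENG averaged 24.0 ± 20.5 CPM in KO (SD, n = 5) and 1.44 ± 0.974 CPM in WT (SD, n = 3). The DESeq2 log2 difference was 4.09 (SE 0.95, 95% interval 2.24 to 5.94) with an adjusted p of 0.0015, and the edgeR FDR was 0.243. Without the high-collagen libraries the call ended: the DESeq2 log2 difference was 1.06 with an adjusted p of 0.805. Over the 8 libraries the log2 levels of ENG and COL1A1 had a Pearson r of 0.98, against 0.85 for KDR and COL1A1. These 8 points share lines, depth and genotype, and the part of the mesenchymal RNA in the ENG result was not tested. In bulk RNA, more cells of a type and more RNA per cell cannot be told apart.

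FLT1, the high-affinity VEGFA receptor, was at 2.83, 9.76 and 0.382 CPM in KO1 and at 42.7 and 5.20 CPM in KO2, against 2.35, 0.0343 and 0.215 CPM in WT. The groups overlapped, since KO1 replicate 3 lay below WT replicate 1, and KO2 replicate 1 was far above every other library. FLT1 averaged 12.2 ± 17.4 CPM in KO (SD, n = 5) and 0.866 ± 1.29 CPM in WT (SD, n = 3). Its log2 difference of 3.83 by DESeq2 (SE 1.30, 95% interval 1.27 to 6.38) missed the threshold at an adjusted p of 0.0537, and the edgeR FDR was 0.287. That result moved with single libraries. Without KO2 replicate 1, the highest, the DESeq2 log2 difference was 2.43 with an adjusted p of 0.298. Without WT replicate 1 the DESeq2 adjusted p was 0.00114 at a log2 difference of 6.68, and without KO1 replicate 3 it was 0.00766 at 4.14. Without the 3 high-collagen libraries the log2 difference was 0.89 with an adjusted p of 0.99.

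FLT4, the VEGFC receptor, which in mouse is also made by neural stem cells, had its KO values on the other side of WT from those of KDR. It was at 6.16, 3.25 and 6.90 CPM in KO1 and at 1.43 and 6.84 CPM in KO2, against 9.12, 7.99 and 12.1 CPM in WT. All 5 KO libraries lay below all 3 WT libraries, and KO2 replicate 1, the library with the most FLT1, had the least FLT4. The nearest pair was KO1 replicate 3, with a Poisson interval of 6.06 to 7.86 CPM, and WT replicate 2, with 7 to 9.08 CPM. FLT4 averaged 4.92 ± 2.45 CPM in KO (SD, n = 5) and 9.72 ± 2.11 CPM in WT (SD, n = 3). The DESeq2 log2 difference was -0.97 (SE 0.50, 95% interval -1.95 to 0.01) with an adjusted p of 0.245, and the edgeR FDR was 0.303. Without the high-collagen libraries it was -0.57 with a DESeq2 adjusted p of 0.527.

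TEK, the angiopoietin receptor, was at 6.16, 0.954 and 3.29 CPM in KO1 and at 12.6 and 2.18 CPM in KO2, against 0.730, 3.19 and 0.965 CPM in WT. The groups overlapped, and TEK did not follow the collagen split: its lowest KO library was KO1 replicate 2, which had the most COL1A1, and the Pearson r with COL1A1 over 8 libraries was 0.04. It averaged 5.04 ± 4.66 CPM in KO (SD, n = 5) and 1.63 ± 1.36 CPM in WT (SD, n = 3). The DESeq2 log2 difference of 1.62 (SE 0.81, 95% interval 0.04 to 3.21) had an adjusted p of 0.229, and the edgeR FDR was 0.342. It was 0.94 without KO2 replicate 1 and 2.58 without WT replicate 2, at DESeq2 adjusted p of 0.528 and 0.0975.

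The junction genes had few counts. PECAM1 had 0, 6 and 0 counts in KO1 and 0 and 1 counts in KO2, against 1, 2 and 0 counts in WT. The highest library, KO1 replicate 2, was at 0.337 CPM, with a Poisson interval of 0.123 to 0.732 CPM. In the libraries with 0 counts, a level of up to 0.0883 to 0.161 CPM would still be allowed by the 3 counts that set the floor. CDH5, the cadherin of endothelial junctions, had 11, 9 and 7 counts in KO1 and 50 and 8 counts in KO2, against 4, 1 and 7 counts in WT. KO2 replicate 1 held the 50 counts, 2.24 CPM. KO1 replicates 1 and 2 and KO2 replicate 2, at 0.556, 0.505 and 0.396 CPM, lay just above the highest WT library at 0.375 CPM, and KO1 replicate 3, at 0.206 CPM, lay within the WT range. CDH5 averaged 0.781 ± 0.827 CPM in KO (SD, n = 5) and 0.191 ± 0.172 CPM in WT (SD, n = 3), and DESeq2 gave it a log2 difference of 2.09 with a 95% interval of 0.20 to 3.99 and an adjusted p of 0.187. A KO against WT difference in PECAM1 was not detectable at this depth.

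VEGFA, the ligand that is induced by low oxygen, was well above the floor in every library. It was at 97.1, 95.7 and 29.0 CPM in KO1 and at 98.4 and 95.9 CPM in KO2, against 92.1, 45.8 and 95.8 CPM in WT. The other 4 KO libraries lay between 95.7 and 98.4 CPM, while KO1 replicate 3 and WT replicate 2 were low, and the groups overlapped. VEGFA averaged 83.2 ± 30.3 CPM in KO (SD, n = 5) and 77.9 ± 27.9 CPM in WT (SD, n = 3). The DESeq2 log2 difference was 0.11 (SE 0.45) with a 95% interval of -0.77 to 0.99 and an adjusted p of 0.913, an interval that still holds changes of over 1.5-fold either way. VEGFC, the ligand of FLT4, was at 6.47, 9.76 and 2.70 CPM in KO1 and at 28.2 and 9.41 CPM in KO2, against 4.58, 4.56 and 8.42 CPM in WT. Its groups overlapped, and KO2 replicate 1 was again the highest library. VEGFC averaged 11.3 ± 9.85 CPM in KO (SD, n = 5) and 5.85 ± 2.22 CPM in WT (SD, n = 3), with a DESeq2 log2 difference of 0.96 (SE 0.66, 95% interval -0.33 to 2.26) and an adjusted p of 0.4.

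**Figure D1:**
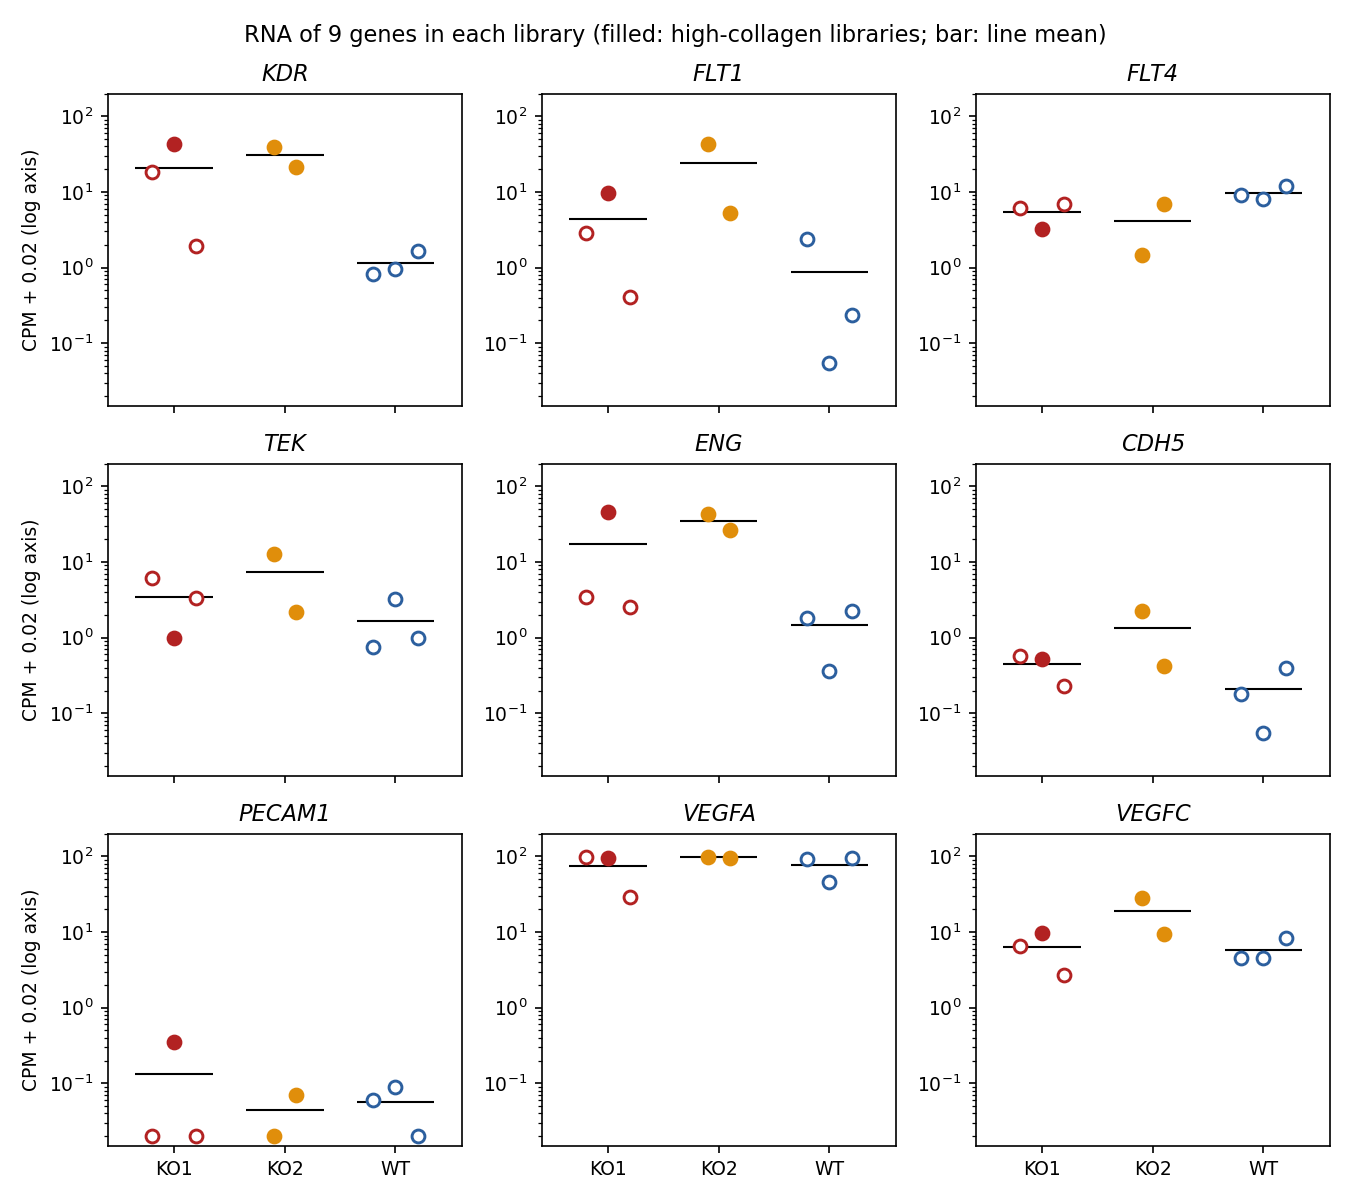
RNA level of the 9 members in each library, as CPM plus a small constant on a log axis, with KO1 and KO2 left of WT in each panel, filled points for the high-collagen libraries and bars for the mean of each line. KDR and ENG lie higher in all 5 KO libraries than in WT and FLT4 lies lower, while PECAM1 is at or near 0 throughout.

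Counted over the 7 members that passed the filter on low counts, 3 had groups that did not overlap, KDR and ENG higher in KO and FLT4 lower. Over all genes tested, 12.5% had groups that did not overlap, 6.29% with KO higher and 6.16% with KO lower. The median log2 difference of the 7 was 1.62, against -0.01 over all genes tested. Without the high-collagen libraries it was 0.85. Either value describes only the members with enough reads in some library.

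**Figure D2:**
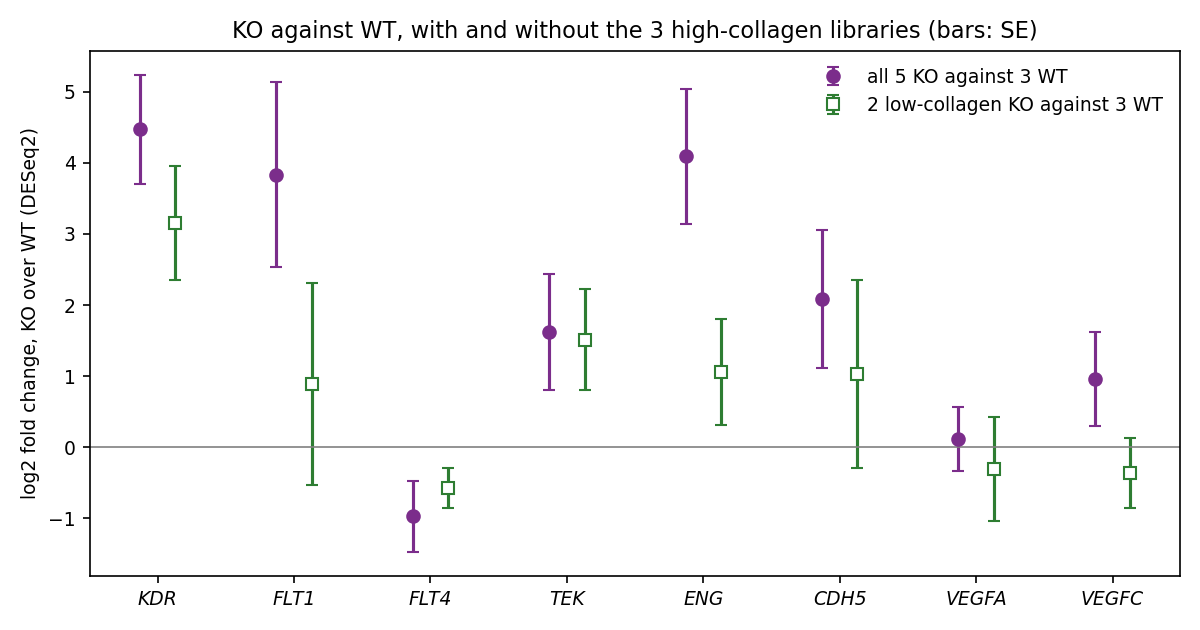
DESeq2 log2 difference of KO over WT for 8 members with bars of 1 SE, with all 5 KO libraries (filled) and without the 3 high-collagen libraries (open); PECAM1 is not drawn. KDR stays high in both, at 4.47 and 3.15, while ENG is at 4.09 with all libraries and 1.06 without those 3.

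The KO lines were also read separately, from 1 fit with 3 groups. Both comparisons use the same 3 WT libraries, so they are not independent of each other. In KO1 against WT, DESeq2 called KDR alone among the members, at a log2 difference of 4.23 and an adjusted p of 0.000995, where 0.846% of genes were called. In KO2 against WT, DESeq2 called KDR, at 4.76 and an adjusted p of 0.000326, and FLT1, at 4.80 and an adjusted p of 0.0424, where 4.24% of genes were called. The KDR call was lost without KO2 replicate 1, at a DESeq2 adjusted p of 0.151. The FLT1 call was lost without KO2 replicate 1, KO2 replicate 2, WT replicate 2 or WT replicate 3, at DESeq2 adjusted p of 0.753, 0.0509, 0.122 and 0.168. ENG had log2 differences of 3.60 in KO1 and 4.60 in KO2, and DESeq2 gave it no adjusted p in either. The KO1 value rested on KO1 replicate 2, without which it was 1.06 with a DESeq2 adjusted p of 0.854. edgeR called no gene in these comparisons, and at an unadjusted p under 0.05 it held 2 members in KO1 against WT, beside 8.06% of all genes, and 5 in KO2 against WT (KDR, FLT1, CDH5, VEGFC and ENG), beside 18.3%.

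No member passed the test between KO2 and KO1 by either tool, where DESeq2 called 0.0401% of genes and edgeR none, with 2.24% of genes at an unadjusted p under 0.05. KDR averaged 30.4 ± 12.5 CPM in KO2 (SD, n = 2) and 20.8 ± 20.4 CPM in KO1 (SD, n = 3), and the 95% interval of their log2 difference by DESeq2, -1.37 to 2.43, holds large changes either way. VEGFC came nearest in edgeR, at a log2 difference of 1.58 with an unadjusted p of 0.0414 and an FDR of 1. The call-free result rests partly on KO1 replicate 2, the KO1 library that resembled KO2 in collagen. Without it, edgeR called ENG in KO2 against KO1 at an FDR of 0.0443, where 4.95% of genes were called, and called KDR at an FDR of 0.0174 and ENG at 0.00772 in KO2 against WT, where 16.7% were called.

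**Figure D3:**
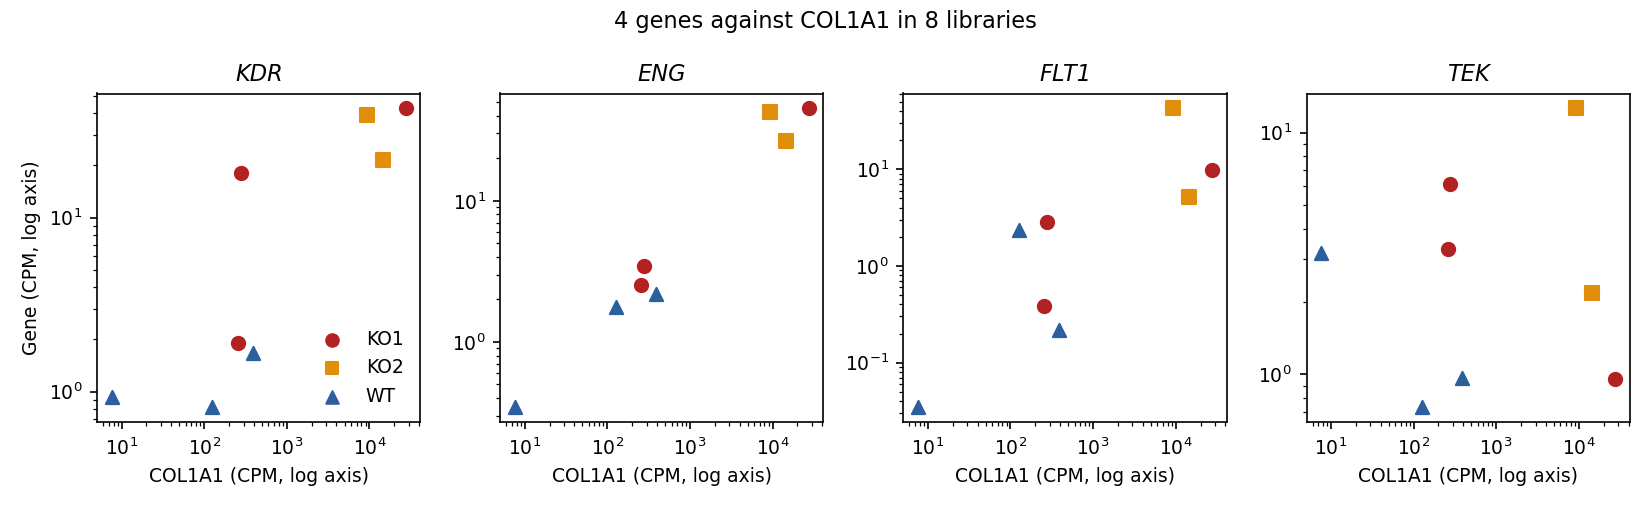
Levels of KDR, ENG, FLT1 and TEK against COL1A1 in the same library, both as CPM on log axes, with KO1, KO2 and WT libraries marked. ENG climbs with COL1A1 across the libraries, with Pearson r 0.98 over 8 libraries, KDR has 1 KO1 library that is high at low COL1A1, and TEK has r 0.04.

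H3K27me3 peaks were called at the VEGF receptor genes and not at the other members. H3K27me3 peaks lay within 2 kb of the start of KDR, FLT1 and FLT4, the 3 VEGF receptor genes, in both the KO and the WT list, and near none of the other 6 members in either. That is 3 of 9 members in each genotype, beside 15.6% of 19974 protein-coding genes in the KO list and 15.1% in the WT list. Peak heights, folds and q-values below are those of the peak caller, in 1 list per genotype, so no difference between KO and WT peaks was tested. The KO list came from 37.6 M (mega) H3K27me3 tags and the WT list from 22.4 M, a gap in depth that moves with genotype. The labels attach the KO list to both KO lines, and the header names a single treatment alignment, so which KO cultures it reflects, and their collagen level, is not known.

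KDR lies on chromosome 4 at 55078481 to 55125595 (GRCh38), on the minus strand. In the KO list 1 peak of 2907 bp, at 55123704 to 55126610, ran over the start and the promoter shown above, with a fold over control of 8.01, a pileup of 39 tags and a −log10 q of 22.6. In the WT list the same stretch held 3 shorter peaks. They spanned 833, 1367 and 392 bp with folds of 4.84, 6.66 and 6.33, and the gap between the last 2 began within the printed promoter. Together the peaks covered 2907 bp of the window in KO and 2323 bp in WT. KDR RNA was higher in KO libraries, and the KO list still held a peak over its start.

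FLT1 lies on chromosome 13 at 28300346 to 28495128, also on the minus strand, and carried the peaks of highest pileup among the members. The KO peak was 4976 bp long with a pileup of 75 tags and a fold of 13.9, and the WT peak was 5353 bp long with a pileup of 65 tags and a fold of 11.2. Both covered all 4001 bp of the window around the start. FLT4 lies on chromosome 5 at 180601506 to 180650298. Its peak was 5100 bp long with a fold of 13 in KO and 3888 bp long with a fold of 17.2 in WT, so KO was the longer at FLT4 and WT the longer at FLT1. The peaks covered 4001 bp of the FLT4 window in KO and 3482 bp in WT.

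**Figure D4:**
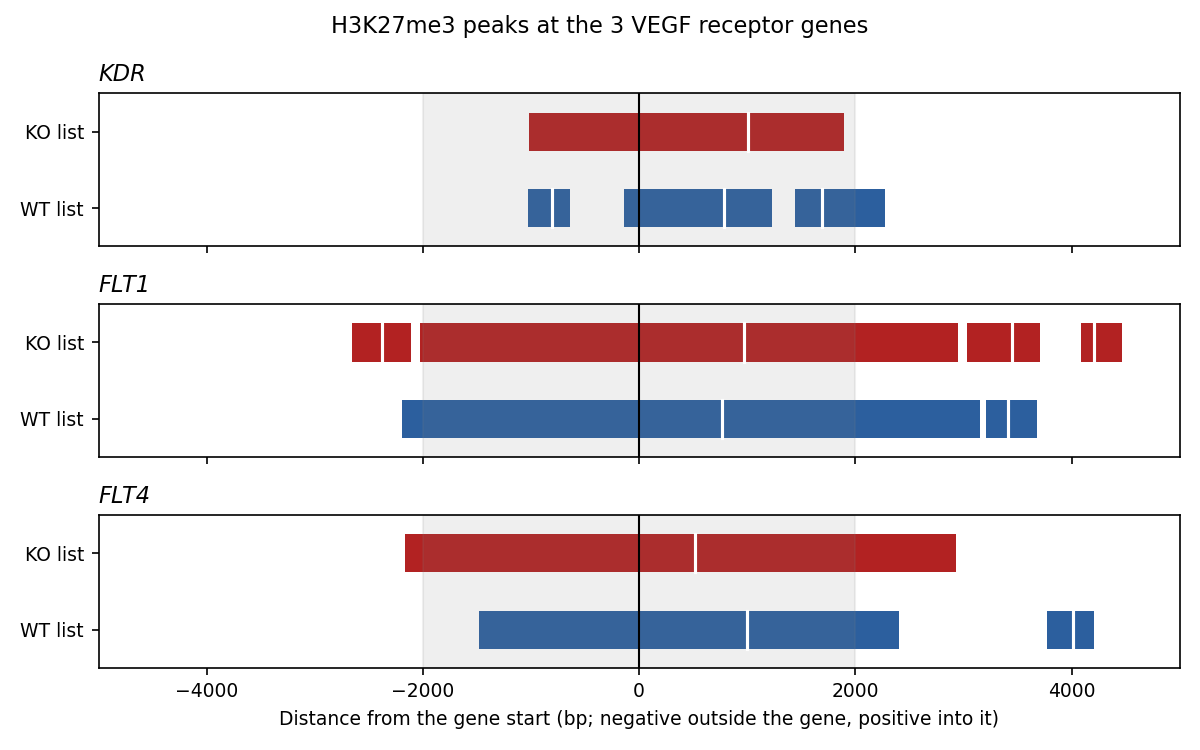
H3K27me3 peaks around the starts of KDR, FLT1 and FLT4, as distance from the start in bp, with the KO list above the WT list. Bars are peaks, white ticks their summits and the grey band the window of 2 kb to either side, and for FLT4 distances run from its higher-coordinate end, since its strand was not in the table used. KDR has 1 peak in KO and 3 in WT, and FLT1 and FLT4 have a long peak over the start in both.

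No H3K27me3 peak lay anywhere over TEK, PECAM1, CDH5, VEGFA, VEGFC or ENG or within 2 kb of them, in either list. The nearest peaks to CDH5 were 19.6 kb away in KO and 20.4 kb away in WT, and those to ENG were 70.2 kb away in both. PECAM1 was thus at or near 0 in RNA with no H3K27me3 peak called, and ENG, among the members called higher in KO, had none in the WT list either. H3K36me3, which marks the bodies of transcribed genes, was called over 0 of 9 members in KO, where 18.7% of genes had such a peak, and over 1 of 9 in WT, where 34.5% had one. That member was VEGFA, with 5 peaks of 325 to 607 bp and folds of 3.85 to 6.75 in the WT list. The KO list held 8937 H3K36me3 peaks and the WT list 30144, so the absence of a KO peak at VEGFA came in a list with fewer peaks throughout, and its RNA level did not pass a test.

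A wider list of 25 vessel signalling genes held other VEGF, angiopoietin and neuropilin genes. It also held genes of other pathways, such as PDGF, ephrin, apelin and adrenomedullin genes. DESeq2 tested 22 of the 25. It called 4 higher in KO and none lower, beside 4.83% and 1.16% of all genes. None of the VEGF ligands or angiopoietins in the list was called. The 21 that passed the filter had a median log2 difference of 0.40, against -0.01 over all genes. NRP1, the neuropilin that serves as co-receptor for VEGFA and semaphorins, was at 129, 99.2 and 89.0 CPM in KO1 and 92.0 and 101 CPM in KO2, against 32.2, 58.8 and 31.1 CPM in WT. Its KO libraries lay close together and all above WT, and the DESeq2 log2 difference was 1.33 (SE 0.28) with an adjusted p of 0.000302. The NRP1 difference was as large without the high-collagen libraries, at 1.42 with an adjusted p of 0.00508. ADM, the vasodilator peptide adrenomedullin, was at 5.41, 40.2 and 1.5 CPM in KO1 and 31.7 and 20.0 CPM in KO2, against 0.324, 0.720 and 0.751 CPM in WT, the pattern of KDR with KO1 replicate 3 lowest. Its DESeq2 log2 difference was 5.07 with an adjusted p of 5.08e-06, and 2.52 with an adjusted p of 0.0435 without the high-collagen libraries. PDGFB, at 3.18 and an adjusted p of 0.018, and its receptor PDGFRB, at 2.99 and 0.014, were called by DESeq2 with all libraries. Neither was called by DESeq2 without the high-collagen libraries. There PDGFB was at 2.46 with an adjusted p of 0.201, and PDGFRB at 0.55 with 0.991. Peaks of H3K27me3 lay near 8 of the 25 genes in KO and 9 in WT, with 6 shared. The share over protein-coding genes was 15.6% in KO and 15.1% in WT. NRP1 had a peak in the WT list only.

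Most other endothelial markers were at low levels or were not called. Of 30 genes, 14 passed the filter, and DESeq2 called 4 of 19 tested, all higher in KO, beside 4.83% of all genes. They were THBD, FLI1, CD34 and ERG, with log2 differences of 6.11, 5.11, 4.94 and 6.87 and adjusted p of 0.000734, 0.00132, 0.00186 and 0.0151. THBD is an anticoagulant receptor, CD34 a surface sialomucin of vessels, blood progenitors and stromal cells, and ERG and FLI1 are ETS factors that endothelium shares with skeletal and blood lineages. ERG was at 0.152, 68.9 and 0.235 CPM in KO1 and 22.5 and 36.3 CPM in KO2, against 0.0405, 0 and 0.644 CPM in WT, high in the high-collagen libraries and at the WT level in KO1 replicates 1 and 3. Without the high-collagen libraries DESeq2 called none of the 12 genes of the list that it tested. FLI1 and CD34 then had adjusted p of 0.973 and 0.897, and ERG and THBD were given none. The defining markers stayed low: VWF, the clotting factor of endothelium, was at 0.168 to 2.73 CPM in KO and 0.0343 to 0.486 CPM in WT, TIE1 at 0 to 0.493 CPM in KO and 0 to 1.18 CPM in WT, and SOX17 at 0 in all libraries. CLDN5, of tight junctions in brain vessels, was at 1.96 to 15.3 CPM in KO and 3.09 to 5.11 CPM in WT. DESeq2 called CLDN5 in KO2 against WT, at 1.80 with an adjusted p of 0.0369, where 4.24% of genes were called. The summed level of the 30 genes ran between 61.3 and 205 CPM in KO and between 44.3 and 89.8 CPM in WT. Peaks of H3K27me3 lay near 12 of the 30 in both lists, beside 15.6% of protein-coding genes in KO and 15.1% in WT.

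A list of 20 hypoxia response genes held genes that low oxygen induces along with VEGFA. It also held regulators of the response: HIF1A, EPAS1, ARNT and VHL. The median log2 difference was 0.02 over the 19 of 20 that passed the filter. DESeq2 called 3 of the 20 higher in KO, beside 4.83% of all genes. They were ADM, EPAS1 at 2.17 and an adjusted p of 0.000258, and NDRG1 at 3.04 and an adjusted p of 0.0234. Without the high-collagen libraries NDRG1 was at -0.23 with a DESeq2 adjusted p of 0.988. ADM and EPAS1 were called there, beside 1.43% of all genes. EPAS1, the HIF subunit typical of endothelium, was at 9.80, 8.64 and 6.20 CPM in KO1 and 18.6 and 11 CPM in KO2, against 2.31, 3.57 and 1.34 CPM in WT, with no overlap. The summed level of the 20 genes ran between 1710 and 2450 CPM in KO and between 1780 and 2140 CPM in WT.

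Among the members, the log2 levels of KDR and ENG had a Pearson r of 0.90 over the 8 libraries, KDR and FLT1 0.83, and KDR and FLT4 -0.76. The genes most like each member by Pearson r of log2 CPM over the same 8 libraries, among genes with a mean log2 CPM of at least 1, are given as a description. For KDR they were CERS2 at 0.992, PRSS23 at 0.988 and VAMP3 at 0.987, and for ENG they were VRK2 at 0.995, NUPR1 at 0.994 and SRPX2 at 0.993. For FLT1 they were PNPLA2, GNG12 and TRIM56, each at 0.989, and for FLT4 they were LIG3 at 0.993, INTS9 at 0.985 and NR2E1 at 0.982. TEK was most like MFSD12 at 0.989, VEGFA most like INTS1 at 0.971 and VEGFC most like CARD19 at 0.974. With 8 libraries that share genotype, depth and culture, the best of many genes reaches such values readily.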

How the data were processed

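RNA was measured in 8 polyA libraries of 17.4 to 31.5 M (mega) estimated counts and chromatin marks in 9 ChIP samples. The authors' gene table holds estimated counts, made with Salmon 1.1.0 on GRCh38 per the submitters' processing notes, and these were rounded to whole numbers. The authors' deposited comparison table gives log2 fold changes, their standard errors, a test score, p-values and mean signal per gene, made with DESeq2 1.26.0 per the same notes. Peaks were called with MACS2 2.2.7.1 at a q-value of 0.01, per the file headers, after alignment with Bowtie2 2.4.1 per the notes. The deposited peak lists give lengths, pileup signal, fold over control (a ratio), and −log10 p-values and q-values. Whether counting used strand is not stated in the labels or headers. FLT1, TEK, CDH5, VEGFC and ENG overlap other annotated genes, so their counts may hold reads of those genes.

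Counts were tested across all genes with edgeR 4.0.16 (filterByExpr, TMM, quasi-likelihood F-test, limma 3.58.1, R 4.3.3), with Benjamini-Hochberg adjustment, and DESeq2 1.42.0 was the alternative. Both were tested on simulated data, where DESeq2 found more of the set changes than edgeR and made more false calls. DESeq2 called the same 1243 genes as the authors' deposited table. Levels are CPM of library totals over the genes that passed the filter, scaled by TMM factors. The factors ran between 0.826 in KO1 replicate 2 and 1.081 in KO1 replicate 3. Gene length was not used, so levels were not compared between genes. Intervals and floors cover counting error only. A member had an H3K27me3 peak where a peak overlapped by 1 bp the window of 2 kb around its start, taken at either end of the gene where no strand was given. Promoters were the 250 bases before each start, without the transcribed bases. Libraries were not paired by replicate number in the main tests. Deviations of same-numbered libraries from their line means correlated between -0.32 and 0.27. With so few libraries per line these deviations are tied to each other, so they cannot exclude a batch shared by number. All 9 members are named. Genes of other lists are named where DESeq2 or edgeR called them, with at most 8 per list, or where they are defining markers, and for likeness the 3 genes of highest Pearson r. The members and lists were chosen with earlier results of these data known. The alternative without the high-collagen libraries was chosen after seeing the data.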

Additional observations from a re-analysis of the deposited data

Results flagged for a closer look

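Among the 5 KO libraries, 5 of the 9 members had a library whose gap to its nearest neighbour took up more of the range than Dixon's 95% critical value of 0.71. For normally distributed values of a single group, chance alone gives this in about 1 in 20 groups. That rate need not hold for CPM pooled over KO1 and KO2, and members high in the same library are not independent. KO2 replicate 1 was the far library for 3 of them. FLT1 was at 42.7 CPM there, with a gap of 0.778 of the range, CDH5 was at 2.24 CPM with a gap of 0.828, and VEGFC was at 28.2 CPM with a gap of 0.723. PECAM1 was far in KO1 replicate 2, at 0.337 CPM and a gap of 0.853, which is 6 counts. VEGFA was low in KO1 replicate 3, at 29 CPM and a gap of 0.961.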

How the results depend on the processing

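edgeR called 0 members in each comparison of groups, and that count was the same with other size factors, other filters on low counts and the replicate block, and with voom weights, run for KO against WT only. DESeq2 called 2 members in KO against WT, 1 in KO1 against WT and 2 in KO2 against WT, and 1 in KO against WT without the 3 high-collagen libraries. Leaving out 1 library at a time gave 0 members by edgeR and 2 to 3 by DESeq2 in KO against WT. Over all genes, DESeq2 then called 1762 of 19789 without KO1 replicate 1 and 776 of 19184 without KO1 replicate 2. In KO1 against WT, edgeR called 0 members and DESeq2 1 to 2. Over all genes, DESeq2 called 442 of 19255 there without KO1 replicate 1 and 147 of 18625 without KO1 replicate 2. The counts for KO2 against WT and KO2 against KO1 also moved between fits. Where this left KO2 with 1 library, that library was assumed to vary like the other groups. KDR and ENG were called by DESeq2 in KO against WT in all 8 such fits, with adjusted p between 6.64e-23 and 0.00115 for KDR and between 1.04e-05 and 0.0322 for ENG. Some directions turned. VEGFA in KO against WT was -0.31 by edgeR and -0.30 by DESeq2 without the 3 high-collagen libraries, where VEGFC was -0.36 by both. With 1 library left out, VEGFA ran between -0.18 and 0.33 in KO against WT and between -0.35 and 0.32 in KO1 against WT, and VEGFC between -0.36 and 0.49 in KO1 against WT. In KO2 against KO1, KDR ran between -0.01 and 1.63, FLT4 between -1.95 and 0.36, TEK, at 1.09 with all libraries, between -0.64 and 1.86, and CDH5, at 1.66, between -0.04 and 2.42. The cause of these turns was not tested. With the replicate block, which pairs libraries by number only, KDR was at 3.93 with an FDR of 0.386 by edgeR, ENG at 3.60 with 0.396, and VEGFA at -0.07. The number of members with an H3K27me3 peak was the same with a window of 5 kb, an overlap of 200 bp and a −log10 q of 5. Depth limits PECAM1 most.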

Other observations

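Pericytes and smooth muscle cells wrap vessels from outside the endothelium. Of 12 pericyte and smooth muscle markers, 11 passed the filter, with a median log2 difference of 1.99, and DESeq2 called 5 higher in KO and none lower, where 4.83% of genes were called higher. RGS5, a regulator of G-protein signalling that marks pericytes, was at 67.7, 516 and 25.3 CPM in KO1 and 404 and 160 CPM in KO2, against 5.80, 1.99 and 6.70 CPM in WT. All 5 KO libraries lay above WT, and the DESeq2 log2 difference was 5.63 with an adjusted p of 7.87e-08. With those 3 KO libraries of high collagen left out, the median over the list was 0.28. DESeq2 then called 2 of 10 tested, beside 1.43% of all genes. RGS5 was at 3.27 with an adjusted p of 0.00604, and TAGLN, an actin-binding protein of smooth muscle, at 3.97 with 0.00862. ACTA2, at 3.13 and an adjusted p of 0.191, CSPG4, at 0.34 and 0.978, and PDGFRB, at 0.55 and 0.991, were then not called. Of 12 blood markers, 4 passed the filter and 6 had a DESeq2 adjusted p. DESeq2 called RUNX1 and PTPRC higher in KO, beside 4.83% of all genes, with PTPRC at 2.86 and an adjusted p of 0.0312. The rest of the list was not called. PTPRC, the pan-leukocyte phosphatase, was at 0.294 to 2.55 CPM in KO and 0.0405 to 0.322 CPM in WT.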
